A study of Mus musculus with 6 samples.

Results

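The genes described here encode sugar, organic ion and nucleoside transporters of 10 solute carrier (Slc) families, measured in the livers of male C57BL/6J mice, an inbred laboratory strain. They were taken as every gene that the array names Slc2a, Slc5a, Slc13a, Slc17a, Slc22a, Slc27a, Slc28a, Slc29a, Slc35a or Slc37a followed by a digit, which gave 74 genes on 111 probes, of 27670 gene names and 41174 probes in all. The rule reads names only. The study set 3 arrays of control liver RNA against 3 arrays of liver RNA from mice on the CFD diet. Both groups ate an iron-supplemented diet defined by its amino acids, from 8 weeks of age for 12 weeks, and were 20 weeks old at the end. The CFD diet held 0.17% methionine and neither choline nor folic acid, while in the control diet methionine stood at 0.4%, folic acid at 2 mg/kg and choline, given as the bitartrate, at 0.3%. Whether each array stands for its own mouse is not stated in the labels, and the p-values then cover only the spread among these 6 samples, part of which may be technical.

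Solute carriers move small molecules across membranes, either down a gradient or coupled to an ion. In the liver, facilitative sugar carriers of the Slc2 family let glucose and fructose cross the hepatocyte membrane, and organic ion carriers of the Slc22 family take up drugs, carnitine and metabolites from blood. Nucleoside carriers of the Slc28 and Slc29 families feed salvage and breakdown, and Slc27 proteins take up fatty acids or activate fatty acids and bile acids with coenzyme A.

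Levels are given as the log2 of the background-subtracted signal of a probe minus the log2 of its array's 75th percentile, so that 0 is the 75th percentile. A gene is represented by 1 probe, and levels are not compared between genes. A gene was tested if its probe was well above background, by the scanner software's own flag, on all 3 arrays of at least 1 group. Differences are CFD diet minus control on the log2 scale with the standard error from limma, and a gene is said to rise or fall where p, adjusted over all 15911 tested genes, was below 0.05. Arrays are numbered by replicate, and each slide, scanned as a unit, held the control and the CFD diet array with its number. Of the 111 probes, 66 to 77 exceeded background by that flag in the control livers and 74 to 88 in the CFD diet livers, and no spot was saturated. All 9 hepatocyte marker genes on the array were well above background on all 6 arrays. Across the tested members, arrays correlated at 0.990 to 0.994 within the control group, at 0.976 to 0.989 within the CFD diet group and at 0.894 to 0.966 between groups.

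Transporters moved in both directions on the CFD diet. The glucose carrier Slc2a1 and the sugar phosphate carrier Slc37a2 rose, while hepatocyte carriers such as Slc2a2, Slc22a7, Slc17a2 and Slc27a5 fell. Of the 53 genes tested, 16 rose, 19 fell and 18 did not pass the test, and 1 of the 19 turned its sign after quantile normalization. Of all genes tested in the liver, 51.1% passed, 23.7% higher and 27.4% lower, against 66.0% of the tested transporters, 30.2% higher and 35.8% lower. The shares over all genes stand beside each count of a family or gene list below. The fitted difference was over 2-fold for 9 that rose and 9 that fell, of which 3 (Slc13a3, Slc37a2 and Slc5a1) and 8 were over 2-fold after normexp background correction, which draws dim values together. For 2 of the 9 that rose, Slc2a10 and Slc5a9, only a bound can be given. The median difference of the tested transporters was -0.31, and that of all tested genes was -0.11. The CFD diet values all lay above the control values for 18 tested transporters and all below for 22, where 28.3% and 34.7% of all genes did so, or 63% in either direction. Of the tested genes, 44 were well above background throughout both groups and 9 only throughout the CFD diet group. None entered through the control group alone, and the 9 were dim in the control livers by the filter itself, so these counts are a description. The arrays' 75th percentile signals were 438.8, 365.0 and 402.2 in the control group and 617.8, 404.1 and 670.2 in the CFD diet group. Of all 41174 probes, 21740 to 26333 had the scanner flag per control array, against 23649 to 29108 per CFD diet array. The part of array brightness in the entry of the 9 genes and in the rises of dim genes was not tested.

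**Figure D1:**
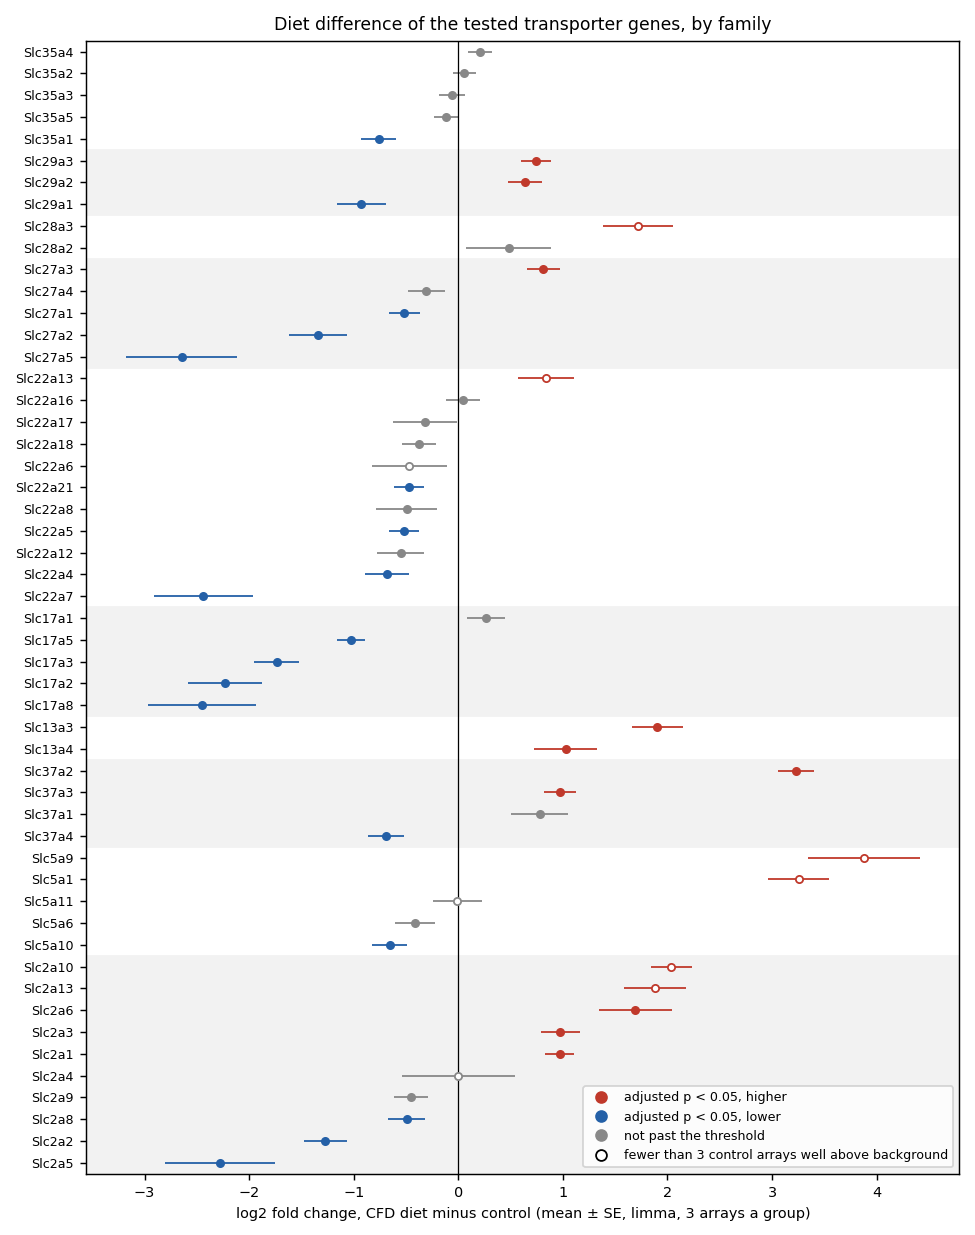
Log2 difference between diets (x axis, CFD diet minus control, mean ± standard error from limma, 3 arrays a group) for 52 of the 53 tested transporter genes (y axis), grouped by family. Red points rose (16), blue points fell (18) and grey points did not pass the test (18), and open points mark the 9 genes with fewer than 3 control arrays well above background. Slc5a9 and Slc5a1 lie farthest to the right, and Slc27a5 farthest to the left at -2.65.

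In bulk liver RNA, fewer cells of a type and less RNA per cell cannot be told apart. Marker genes of other cells moved with the diet too. The summed signal of the hepatocyte markers, in multiples of the array's 75th percentile, was 2190 to 2690 in the control livers and 1290, 2100 and 1310 on CFD diet arrays 1 to 3, and 6 of the 9 fell. Macrophage markers summed to 107 to 145 in the control and 354 to 474 in the CFD diet livers, with 9 of 10 genes higher and 1 lower. Lyz2 made up 46.4% to 71.0% of the macrophage sum, and the other macrophage markers summed to 57.5 to 66.8 and 130 to 173. Markers of stellate cells and myofibroblasts summed to 19.0 to 21.3 and 57 to 75.7 in the same order, with 10 of 10 higher. Cholangiocyte markers summed to 5.90 to 9.07 and 90.6 to 126, with 9 of 10 higher, and Cftr and Cldn4 were among 3 not well above background on any control array. Spp1, which macrophages express too, made up 87.5% to 93.1% of the cholangiocyte sum, and the other 9 markers summed to 0.703 to 1.09 and 6.23 to 9.03. Neutrophil markers summed to 1.43 to 2.41 and 19.0 to 25.1. Of the 9 on the array, 5 could be tested, and all 5 were higher. Ngp, Camp, Elane and Cxcr2 were not well above background on any control array. On the CFD diet arrays, Ngp and Camp were not well above it either, while Elane was on 1 and Cxcr2 on 3. Mpo was well above background on 1 array of each group. S100a9 made up 80.8% to 90% of the neutrophil sum. Endothelial markers summed to 45.3 to 49.1 and 30.1 to 39.6, with 1 of 10 higher and 4 lower, and Clec4g made up 47.9% to 58.9% of the sum. Lymphocyte markers lay at 0.962 to 1.30 and 1.12 to 1.70, with 1 of 9 tested higher and 2 lower. The part of these shifts in the values of the transporters was not tested.

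In the Slc2 family of facilitative sugar carriers, 5 of the 10 tested genes rose, 3 fell and 2 did not pass, with a median of 0.49. Slc2a2, the main glucose carrier of the hepatocyte membrane, fell. Its levels were 4.50, 4.53 and 4.67 in the control livers and 3.22, 3.71 and 2.96 in the CFD diet livers, without overlap, and the difference was -1.27 ± 0.20 (adjusted p = 0.00310). The highest of the 3 CFD diet values was that of replicate 2. The Slc2a2 probe lies, in build mm7, on chromosome 3 from 28543803 to 28543862. Slc2a5, a fructose carrier, fell too, with means of 1.35 ± 0.23 in the control and -0.93 ± 1.12 in the CFD diet livers (SD, n = 3). Its levels were 1.08, 1.53 and 1.44 in the control livers and -1.06, 0.25 and -1.98 in the CFD diet livers, and the difference was -2.28 ± 0.52 (adjusted p = 0.0111). The CFD diet values were spread over more than the control values, with replicate 2 closest to the controls. Slc2a8, an intracellular hexose carrier, changed by -0.49 ± 0.17 (adjusted p = 0.0499).

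Among the genes that rose, Slc2a13, a proton-coupled carrier of myo-inositol, stood at -5.24, -6.26 and -6.11 in the control livers and -3.66, -4.24 and -4.07 in the CFD diet livers. The difference was 1.88 ± 0.30 (adjusted p = 0.00301), and only 1 control array was well above background. Slc2a10, another facilitative carrier, was not well above background on any control array, where its values were -6.57, -7.26 and -6.89, and was well above it at -4.90, -4.98 and -4.74 on the CFD diet arrays. The bound on its rise was 1.45-fold on this signal scale. That bound sets the CFD diet mean against the higher of the array's lowest signal well above background and the probe's own value in the controls. It is no limit under other background corrections, since normexp gave Slc2a10 a smaller difference (0.26). The fitted difference of Slc2a10, 2.04 ± 0.19 (adjusted p = 0.000459), rests on control signals at background. Slc2a6, a carrier of lysosomal membranes, rose by 1.69 ± 0.35 (adjusted p = 0.00776), Slc2a1, a glucose carrier of many tissues, by 0.97 ± 0.14 (adjusted p = 0.00215) and Slc2a3, a high-affinity glucose carrier, by 0.98 ± 0.19 (adjusted p = 0.00567). For Slc2a1, the CFD diet values lay between 1.70 and 1.96 and the control values between 0.66 and 0.98, so the groups did not overlap. Slc2a4, the insulin-responsive glucose carrier of muscle and fat, did not pass at 0.0019 ± 0.54 (adjusted p = 0.998), with values from -5.85 to -3.73 in the controls that enclosed those of the CFD diet livers. Slc2a9, a urate carrier, had -0.45 ± 0.16 (adjusted p = 0.0535) and did not pass.

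Under normexp background correction, Slc2a6 rose by 0.97, and the calls of Slc2a10 (0.26, adjusted p = 0.392), Slc2a13 (0.40, adjusted p = 0.100) and Slc2a3 (0.37, adjusted p = 0.170) ended. The call of Slc2a8 ended under quantile normalization (adjusted p = 0.0631), and also without control replicate 1 (0.0505), control replicate 2 (0.134), control replicate 3 (0.146), CFD diet replicate 1 (0.127) or CFD diet replicate 3 (0.110), where the adjusted p is in parentheses.

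Genes that act on the sugars these proteins carry moved both ways. Of 20 tested genes of sugar phosphorylation and sensing, 5 rose, 9 fell and 6 did not pass, with a median of -0.62. The glycogen synthase gene Gys2 changed by -1.37 ± 0.23 (adjusted p = 0.00373). Hk2, a hexokinase of many growing tissues, rose by 2.07 ± 0.27 (adjusted p = 0.00154), and Akr1b3, the aldose reductase that reduces glucose to sorbitol, by 2.18 ± 0.12 (adjusted p = 9.35e-05).

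In the Slc5 family of sodium-coupled carriers, 5 of 13 genes could be tested, of which 2 rose, 1 fell and 2 did not pass. Slc5a1, which takes up glucose and galactose with sodium and is best known from intestine, stood at -4.93, -5.94 and -5.15 in the control livers and -2.40, -2.08 and -1.78 in the CFD diet livers. Only 1 control array was well above background, and the 3 CFD diet arrays all were. The groups were far apart, with a difference of 3.25 ± 0.29 (adjusted p = 0.000385). Its probe lies on chromosome 5 from 32224658 to 32224717 in build mm7. Slc5a9, a sodium-coupled carrier of mannose and glucose, was not well above background on any control array, with values of -8.24, -6.99 and -6.65 there. On the CFD diet arrays its values were -2.67, -4.31 and -3.28, all well above background. The bound on its rise, set as for Slc2a10, was 3.96-fold on this signal scale, and normexp gave a smaller difference (0.76). The fitted difference of Slc5a9, 3.88 ± 0.54 (adjusted p = 0.00186), rests on control signals at background. Both genes have another tested probe, with 3.75 ± 0.36 for Slc5a1 and 3.21 ± 0.48 for Slc5a9.

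Slc5a10, a carrier of mannose and fructose, had levels of -2.58, -3.08 and -2.95 in the control livers and -3.46, -3.43 and -3.68 in the CFD diet livers, and fell, with a difference of -0.66 ± 0.17 (adjusted p = 0.0166). Slc5a6, which takes up biotin and pantothenate, stood at 1.16, 1.60 and 1.46 in the control livers and 0.84, 1.31 and 0.83 in the CFD diet livers. The groups overlapped, and it did not pass at -0.41 ± 0.19 (adjusted p = 0.110). Slc5a11, a carrier of myo-inositol, did not pass either, at -0.0081 ± 0.23 (adjusted p = 0.979). Slc5a8, a sodium-coupled carrier of monocarboxylates, could not be tested, since 2 CFD diet arrays and 0 control arrays were well above background. Its CFD diet values of -5.35, -5.80 and -4.80 all lay above the control values of -8.31, -7.03 and -6.69. The bound on its rise was 1.06-fold on this signal scale. Slc5a5, the iodide carrier of the thyroid, was well above background on 1 array only, CFD diet replicate 1, at -2.51, where its other values lay between -7.52 and -6.01. With normexp, Slc5a1 rose by 1.16 and Slc5a9 by 0.76, and the call of Slc5a10 ended (-0.28, adjusted p = 0.222), as it did without CFD diet replicate 3 (0.0593).

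The Slc37 proteins exchange sugar phosphates for phosphate in the endoplasmic reticulum and related membranes. All 4 members were tested, and 2 rose, 1 fell and 1 did not pass. Slc37a2 had the smallest adjusted p of the 53. Its levels were -2.84, -2.97 and -3.11 in the control livers and 0.20, -0.0024 and 0.57 in the CFD diet livers, and the difference was 3.23 ± 0.18 (adjusted p = 9.35e-05), a 9.37-fold rise. The 3 control and the 3 CFD diet values each lay close together, and the difference within slides 1, 2 and 3 was 3.04, 2.97 and 3.67. Another Slc37a2 probe gave 2.85 ± 0.21. The rise was 2.31 with normexp. Its probe lies on chromosome 9 from 37159364 to 37159423 in build mm7.

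The promoter window of Slc37a2, from 250 bases before to 50 bases after the annotated start (RefSeq, GRCm38.p6, chr9:37255689-37255988 on the minus strand), is shown because this gene had the smallest adjusted p and is the 1 of 14 windowed members that rose to hold the motif marked. The capitals mark TGANTCA, starting 107 bases before the gene start. With N as any base, this pattern takes in the AP-1 site but is wider than it.
Slc37a2: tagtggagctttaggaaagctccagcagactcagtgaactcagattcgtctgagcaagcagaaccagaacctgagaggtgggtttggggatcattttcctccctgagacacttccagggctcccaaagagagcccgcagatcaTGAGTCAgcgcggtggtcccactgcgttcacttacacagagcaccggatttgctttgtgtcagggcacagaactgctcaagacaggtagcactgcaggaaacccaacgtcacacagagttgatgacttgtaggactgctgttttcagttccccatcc
This motif, searched on both strands, was found in the windows of 3 of 62 transporters with a window, namely Slc37a2, which rose, Slc17a2, which fell, and Slc2a9, which did not pass. It is present in 8.97% of the 27025 genes with such a window. A match describes the letters only.

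Slc37a3, a carrier of lysosomal membranes, had levels of 0.60, 0.50 and 0.45 in the control livers and 1.75, 1.25 and 1.47 in the CFD diet livers and rose by 0.97 ± 0.16 (adjusted p = 0.00318). Slc37a4, which brings glucose 6-phosphate into the endoplasmic reticulum for the last step of glucose release, stood at 5.59, 5.49 and 5.63 in the control livers and 5.0, 5.10 and 4.53 in the CFD diet livers. It fell, without overlap, and the difference was -0.69 ± 0.17 (adjusted p = 0.0152). After quantile normalization it was -0.27 (adjusted p = 0.198), and the call also ended without control replicate 3 (0.0556). Slc37a1, an exchanger of glucose 6-phosphate, had 0.78 ± 0.27 (adjusted p = 0.0504) and overlapping groups.

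The Slc13 family carries dicarboxylates, citrate and sulfate with sodium. Both tested members rose, and the other 3 could not be tested. Slc13a3, a carrier of succinate and other dicarboxylates, stood at -1.03, -0.90 and -1.40 in the control livers and 0.80, 0.37 and 1.20 in the CFD diet livers. The groups did not overlap, and the difference was 1.90 ± 0.24 (adjusted p = 0.00140). Slc13a4, a sulfate carrier, had levels of -1.23, -1.98 and -1.33 in the control livers and -1.05, -0.15 and -0.25 in the CFD diet livers, so that CFD diet replicate 1 lay only just above the highest control. Its difference of 1.03 ± 0.30 (adjusted p = 0.0282) lost its call when slide was a block (adjusted p = 0.0599), after scaling to the array median and without control replicate 2 (0.0769), control replicate 3 (0.0529), CFD diet replicate 2 (0.0756) or CFD diet replicate 3 (0.0910). Slc13a5, the citrate carrier of hepatocytes, stood well above background for 1 CFD diet liver and no control liver. Of 12 tested genes of citrate and dicarboxylate metabolism, 9 fell and 3 did not pass, with a median of -1.01. The cytosolic isocitrate dehydrogenase gene Idh1 changed by -1.37 ± 0.20 (adjusted p = 0.00206), and the mitochondrial citrate carrier gene Slc25a1 by -1.29 ± 0.21 (adjusted p = 0.00351).

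The Slc17 family holds carriers of phosphate, urate, sialic acid and glutamate. Of its 7 genes, 5 were tested, of which 4 fell and 1 did not pass, with a median of -1.74. Slc17a2, one of the sodium phosphate carriers of liver and kidney, fell steeply. Its levels were 3.10, 2.99 and 3.12 in the control livers and 0.44, 1.71 and 0.35 in the CFD diet livers, and the difference was -2.23 ± 0.36 (adjusted p = 0.00309). The CFD diet value of replicate 2 was the highest of the 3 and still lay under all controls. Slc17a8, a vesicular glutamate carrier best known from neurons, stood at -0.44, -1.31 and -0.45 in the control livers and -3.57, -2.03 and -3.95 in the CFD diet livers, and its difference was -2.45 ± 0.51 (adjusted p = 0.00808). With normexp the difference was -1.53, and another tested probe of Slc17a8 gave -1.14 ± 0.18. Slc17a3, a urate and organic anion carrier, changed by -1.74 ± 0.22 (adjusted p = 0.00130), and Slc17a5, which exports sialic acid from lysosomes, by -1.03 ± 0.13 (adjusted p = 0.00142). Slc17a1, a phosphate and urate carrier, did not pass at 0.27 ± 0.18 (adjusted p = 0.258). Its values ran from -1.09 to -0.56 in the controls and from -0.55 to -0.31 on the CFD diet, so it lay on the other side of 0 from its neighbours in the genome.

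Slc17a2, Slc17a3 and Slc17a1 follow each other on chromosome 13 as adjacent protein-coding genes in the RefSeq order. Their promoter windows (RefSeq, GRCm38.p6) are shown because members of this cluster differed in call while each has a window with TTCNNNGAA, the letters that STAT factors recognize, in capitals. The windows are chr13:23806743-23807042 on the plus strand for Slc17a2, chr13:23839184-23839483 on the plus strand for Slc17a3 and chr13:23870023-23870322 on the plus strand for the second start of Slc17a1. The match starts 191, 138 and 139 bases before the gene start.
Slc17a2: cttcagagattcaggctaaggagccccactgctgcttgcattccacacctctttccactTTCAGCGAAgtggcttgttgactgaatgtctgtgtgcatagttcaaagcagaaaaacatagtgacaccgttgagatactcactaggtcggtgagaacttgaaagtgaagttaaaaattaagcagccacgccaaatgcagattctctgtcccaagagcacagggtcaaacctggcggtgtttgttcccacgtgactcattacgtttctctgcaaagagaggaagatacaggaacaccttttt
Slc17a3: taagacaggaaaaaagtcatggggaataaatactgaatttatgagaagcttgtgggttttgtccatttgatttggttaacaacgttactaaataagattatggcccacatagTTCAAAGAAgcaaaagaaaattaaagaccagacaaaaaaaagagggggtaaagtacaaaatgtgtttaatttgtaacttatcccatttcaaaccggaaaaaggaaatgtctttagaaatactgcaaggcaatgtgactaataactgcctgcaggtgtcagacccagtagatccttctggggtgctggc
Slc17a1: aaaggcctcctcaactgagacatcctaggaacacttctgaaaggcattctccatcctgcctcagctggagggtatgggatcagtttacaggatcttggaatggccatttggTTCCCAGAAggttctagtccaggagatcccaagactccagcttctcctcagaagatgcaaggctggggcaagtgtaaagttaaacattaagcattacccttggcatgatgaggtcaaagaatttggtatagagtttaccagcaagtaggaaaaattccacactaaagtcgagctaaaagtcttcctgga
The window of the other Slc17a1 start, chr13:23868768-23869067 on the plus strand, holds no match. The motif is its own reverse complement, and was found in 2 of 15 windowed members that fell, 0 of 14 that rose, 3 of 16 that did not pass and 1 of 17 that could not be tested, against 9.55% of all genes with a window. Near its start, the Slc17a2 window also holds TGANTCA and CACGTG, which overlap each other. The other motifs were searched on both strands. Their counts follow in the order of the 14 that rose, 15 that fell, 16 that did not pass and 17 not tested. CACGTG, the E-box, was present for 3, 4, 2 and 0 (8.09% of all genes). AGGTCA, a nuclear receptor half-site, was present for 1, 5, 3 and 1 (18.1%). GTTAAT, read by HNF1 factors, was present for 0, 1, 3 and 1 (8.24%). TGACNNNGC, read by NFE2L2, was present for 2, 3, 0 and 2 (14.0%).

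The Slc22 family, the largest here, carries organic cations, organic anions and carnitine. Of 17 genes, 12 were tested, of which 1 rose, 5 fell and 6 did not pass, with a median of -0.47. The share that passed, 50%, was near the 51.1% of all tested genes. Slc22a7, an organic anion carrier of the hepatocyte membrane facing the blood, had the largest fall among these 12. Its levels were 2.58, 3.20 and 2.74 in the control livers and -0.44, 1.49 and 0.16 in the CFD diet livers, and the difference was -2.44 ± 0.47 (adjusted p = 0.00619). Again replicate 2 was the highest of the CFD diet livers, under every control.

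Slc22a5, Slc22a21 and Slc22a4, carriers of carnitine and organic cations, are adjacent protein-coding genes on chromosome 11, and all 3 fell by small amounts. Slc22a4 had levels of -0.86, -1.08 and -0.78 in the control livers and -2.02, -1.36 and -1.37 in the CFD diet livers and a difference of -0.68 ± 0.21 (adjusted p = 0.0326). Slc22a5 changed by -0.52 ± 0.14 (adjusted p = 0.0221) and Slc22a21 by -0.47 ± 0.15 (adjusted p = 0.0336). None of the 3 overlapped between groups, and 34.7% of all genes likewise lay wholly lower. All 3 calls ended with the slide as a block, at adjusted p = 0.0519 for Slc22a4, 0.0578 for Slc22a5 and 0.0640 for Slc22a21. With normexp the differences of Slc22a4 and Slc22a21 were -0.51 (adjusted p = 0.0668) and -0.29 (adjusted p = 0.0925). The calls ended for Slc22a4 also without control replicate 1 (0.0856) or control replicate 3 (0.102), for Slc22a5 without control replicate 1 (0.0619), control replicate 3 (0.0858) or CFD diet replicate 3 (0.0689), and for Slc22a21 without control replicate 1 (0.102), control replicate 3 (0.120) or CFD diet replicate 3 (0.107).

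Of the 12 tested Slc22 genes selected by name, the 1 that rose was Slc22a13, an organic anion carrier, at -5.54, -6.34 and -6.28 in the control livers and -5.44, -4.85 and -5.35 in the CFD diet livers. Only 1 control array was well above background, and its difference was 0.84 ± 0.27 (adjusted p = 0.0355). That call ended with normexp (0.078, adjusted p = 0.828), after quantile normalization, when slide was a block (adjusted p = 0.0698) and without control replicate 2 (0.104), control replicate 3 (0.110), CFD diet replicate 2 (0.0870) or CFD diet replicate 3 (0.0698). The urate exchanger Slc22a12 had -0.55 ± 0.22 (adjusted p = 0.0801) and Slc22a18, a gene of an imprinted region, -0.37 ± 0.16 (adjusted p = 0.0903), and neither passed. Slc22a16 had 0.044 ± 0.16 (adjusted p = 0.839), Slc22a17, a receptor for lipocalin, -0.32 ± 0.31 (adjusted p = 0.413), and the organic anion carriers Slc22a6 and Slc22a8 -0.47 ± 0.36 (adjusted p = 0.309) and -0.49 ± 0.29 (adjusted p = 0.196).

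Carriers of organic ions from other families moved as well. Of 15 tested genes, 2 rose, 9 fell and 4 did not pass, with a median of -1.15. Slc10a1, the sodium-coupled bile acid carrier of hepatocytes, had levels of 6.0, 5.92 and 6.14 in the control livers and 1.19, 4.27 and 1.11 in the CFD diet livers and changed by -3.83 ± 0.81 (adjusted p = 0.00829). Slco1a1, an organic anion carrier, had levels of 3.34, 3.03 and 3.18 in the control livers and -6.63, 1.41 and -6.62 in the CFD diet livers, with 1 CFD diet array not well above background. Its difference of -7.13 ± 2.07 (adjusted p = 0.0265) lost its call without control replicate 1 (0.0644), control replicate 2 (0.0624), control replicate 3 (0.0654), CFD diet replicate 1 (0.0792) or CFD diet replicate 3 (0.0844). The export pumps Abcc4 and Abcb1a rose, by 3.11 ± 0.32 (adjusted p = 0.000614) and 2.21 ± 0.39 (adjusted p = 0.00422), and Abcb1a, at 0.68 with normexp, was well above background on 1 control array. With normexp, Slco1a1 had a difference of -4.47. Of 14 regulators known to act on transporter genes, 2 rose, 10 fell and 2 did not pass, with a median of -0.89. Cebpa changed by -1.59 ± 0.27 (adjusted p = 0.00408) and Onecut1 by -1.85 ± 0.59 (adjusted p = 0.0376), both factors of hepatocyte genes, while the oxidative stress factor Nfe2l2 rose by 0.45 ± 0.13 (adjusted p = 0.0284) and the estrogen receptor gene Esr1 by 0.63 ± 0.20 (adjusted p = 0.0359). Control replicate 2 carried much of the Onecut1 difference, at 4.05 against 1.71 and 1.86 in the other controls, and without it the difference was -1.10 (adjusted p = 0.00510). Scaled to the array median, Nfe2l2 had 0.24 (adjusted p = 0.244). When slide was a block, Esr1 had an adjusted p of 0.0723. Onecut1 lost its call without CFD diet replicate 1 (0.0805), CFD diet replicate 2 (0.0782) or CFD diet replicate 3 (0.102), Nfe2l2 without control replicate 2 (0.0898), control replicate 3 (0.0864), CFD diet replicate 1 (0.0633) or CFD diet replicate 3 (0.0931), and Esr1 without control replicate 1 (0.101), control replicate 2 (0.0538), control replicate 3 (0.101), CFD diet replicate 1 (0.0759) or CFD diet replicate 3 (0.0843).

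In the Slc27 family of fatty acid carriers and acyl-CoA synthetases, 5 of 6 genes were tested, of which 1 rose and 3 fell. Slc27a5, which activates bile acids and very long-chain fatty acids in hepatocytes, had the largest fall among the 53 tested genes selected by name. Its levels were 7.79, 7.89 and 7.89 in the control livers and 4.41, 6.55 and 4.67 in the CFD diet livers, and the difference was -2.65 ± 0.53 (adjusted p = 0.00690), 6.26-fold lower. The controls lay within a narrow range, and CFD diet replicate 2 stood between them and the other CFD diet arrays. Its probe lies on chromosome 7 from 11575156 to 11575215 in build mm7. Slc27a2, a very long-chain acyl-CoA synthetase, stood at 7.0, 7.27 and 7.25 in the control livers and 5.56, 6.47 and 5.47 in the CFD diet livers and changed by -1.34 ± 0.28 (adjusted p = 0.00749), and its other tested probe by -1.51 ± 0.26. After quantile normalization the difference was -0.89. Slc27a1, a fatty acid carrier of muscle and fat, changed by -0.52 ± 0.15 (adjusted p = 0.0247), a call lost when slide was a block (adjusted p = 0.0636) and without control replicate 1 (0.0832), control replicate 3 (0.0822), CFD diet replicate 1 (0.0680) or CFD diet replicate 3 (0.0811).

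Slc27a3, an acyl-CoA synthetase of the same family, rose. Its levels were -4.22, -4.50 and -4.33 in the control livers and -3.81, -3.42 and -3.38 in the CFD diet livers, with a difference of 0.81 ± 0.16 (adjusted p = 0.00640), and the call ended with normexp (0.26, adjusted p = 0.341). Slc27a4, the fatty acid carrier of intestine and skin, had -0.31 ± 0.18 (adjusted p = 0.187) and did not pass. Of 13 tested genes of fatty acyl-CoA synthesis and binding, 3 rose, 7 fell and 3 did not pass, with a median of -0.96. The acetyl-CoA synthetase gene Acss2 changed by -2.48 ± 0.43 (adjusted p = 0.00395) and the medium-chain synthetase gene Acsm1 by -1.97 ± 0.35 (adjusted p = 0.00462). The binding protein gene Fabp4 rose by 1.78 ± 0.14 (adjusted p = 0.000215) and the fatty acid translocase gene Cd36 by 1.75 ± 0.16 (adjusted p = 0.000401).

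**Figure D2:**
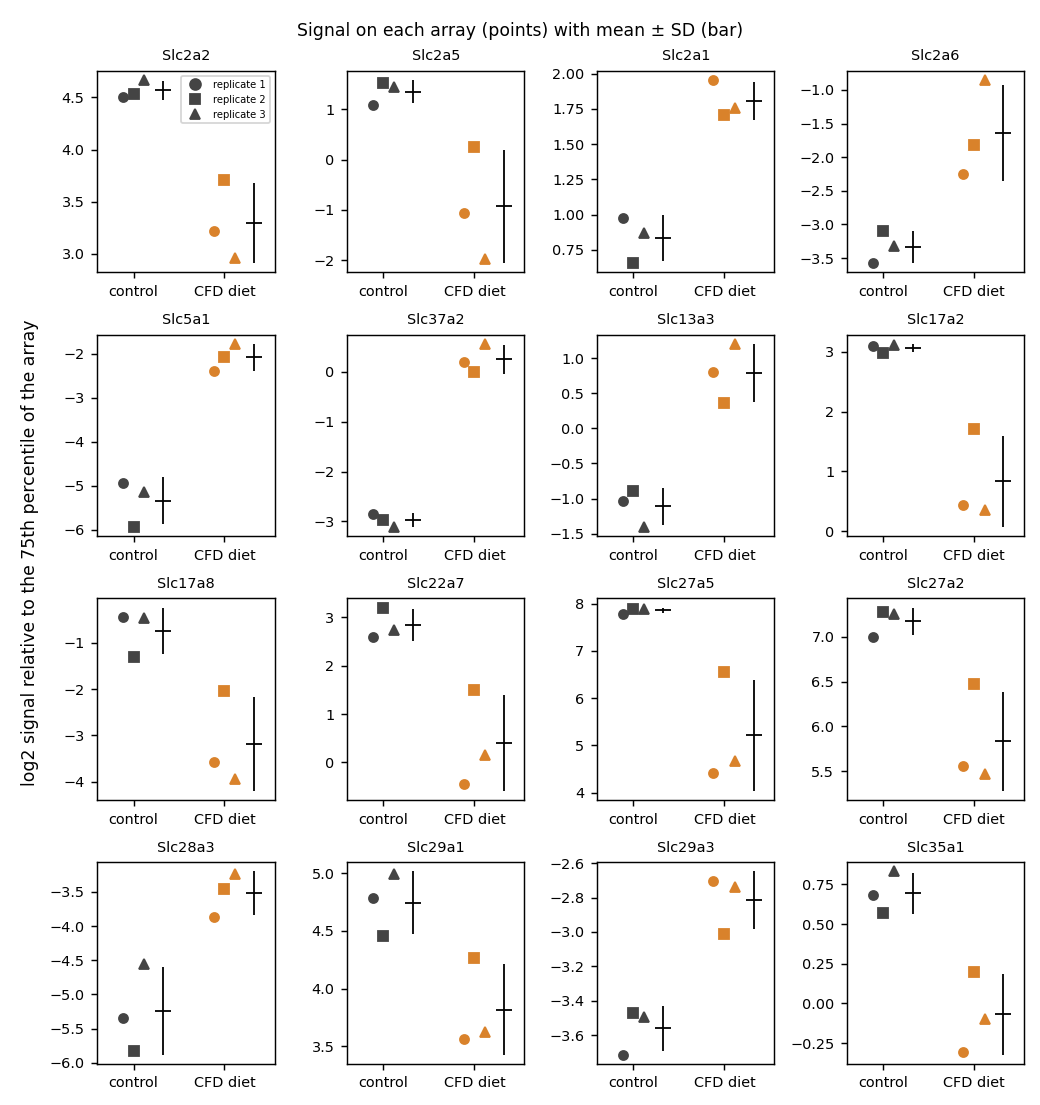
Log2 signal relative to the array's 75th percentile (y axis) on each of the 6 arrays (points, shaped by replicate number) with mean ± SD (bars, n = 3) for 16 transporter genes by diet (x axis); each panel has its own scale. Slc37a2 lay between -3.11 and -2.84 in the controls and between -0.0024 and 0.57 on the CFD diet, and for genes that fell, such as Slc27a5 (6.55) and Slc17a2 (1.71), CFD diet replicate 2 was the closest to the controls.

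Of the 5 nucleoside carriers tested, 3 rose, where 23.7% of all tested genes did, and these 3 calls ended with normexp. Slc28a3, a sodium-coupled carrier of purine and pyrimidine nucleosides, stood at -5.35, -5.82 and -4.56 in the control livers and -3.87, -3.45 and -3.24 in the CFD diet livers. Of the control arrays, 2 were well above background, and the groups did not overlap. The difference was 1.72 ± 0.33 (adjusted p = 0.00621), and with normexp the call ended (0.43, adjusted p = 0.136). Slc28a2, which prefers purine nucleosides, stood at -3.59, -2.48 and -3.98 in the control livers and -2.97, -3.23 and -2.40 in the CFD diet livers. The groups overlapped, and it did not pass at 0.48 ± 0.41 (adjusted p = 0.355).

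All 3 tested members of the Slc29 family of equilibrative nucleoside carriers passed the test. Slc29a1, the common carrier of the cell membrane, fell. Its levels were 4.79, 4.46 and 4.99 in the control livers and 3.56, 4.27 and 3.63 in the CFD diet livers, so that CFD diet replicate 2 was only 0.19 under the lowest control, which was on its slide. The difference was -0.93 ± 0.24 (adjusted p = 0.0164), it was -0.61 after quantile normalization, and the call ended without control replicate 3 (0.0586), CFD diet replicate 1 (0.0522) or CFD diet replicate 3 (0.0586). Slc29a3, a carrier of lysosomes, rose by 0.74 ± 0.14 (adjusted p = 0.00558), with levels of -3.71, -3.47 and -3.50 in the control livers and -2.70, -3.01 and -2.74 in the CFD diet livers. Slc29a2, an equilibrative carrier of nucleosides and nucleobases, had levels of -3.81, -3.79 and -3.49 in the control livers and -3.21, -3.16 and -2.82 in the CFD diet livers and rose by 0.64 ± 0.16 (adjusted p = 0.0160). Neither overlapped between groups, and 28.3% of all genes likewise lay wholly higher. With normexp the call of Slc29a3 ended (0.29, adjusted p = 0.187), and that of Slc29a2 ended with normexp (0.24, adjusted p = 0.349), after quantile normalization and without control replicate 1 (0.0551), control replicate 2 (0.0528) or CFD diet replicate 3 (0.0502). Slc29a4, a carrier of monoamines, could not be tested.

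Of 20 tested genes of nucleoside salvage and breakdown, 6 rose, 10 fell and 4 did not pass, with a median of -0.34. Upp2, a uridine phosphorylase of liver, had levels of 3.39, 4.03 and 4.0 in the control livers and -0.61, 2.05 and -0.46 in the CFD diet livers and changed by -3.48 ± 0.69 (adjusted p = 0.00668). Uox, the urate oxidase, changed by -2.08 ± 0.44 (adjusted p = 0.00862). The ectonucleotidase gene Nt5e, which makes adenosine outside the cell, rose by 2.03 ± 0.28 (adjusted p = 0.00190), and the cytidine deaminase gene Cda by 1.77 ± 0.20 (adjusted p = 0.000860).

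The Slc35a proteins carry nucleotide sugars into the Golgi. All 5 genes were tested, 1 fell and 4 did not pass, with a median of -0.06. Slc35a1, which carries CMP-sialic acid, stood at 0.68, 0.57 and 0.83 in the control livers and -0.30, 0.20 and -0.10 in the CFD diet livers, without overlap, and its difference was -0.76 ± 0.16 (adjusted p = 0.00881). Slc35a3, the carrier of UDP-N-acetylglucosamine, stood at 1.24, 1.26 and 1.38 in the control livers and 1.14, 1.38 and 1.18 in the CFD diet livers. The groups overlapped, and it did not pass at -0.06 ± 0.12 (adjusted p = 0.706). The UDP-galactose carrier Slc35a2 had 0.058 ± 0.11 (adjusted p = 0.683), Slc35a4 0.21 ± 0.11 (adjusted p = 0.165) and Slc35a5 -0.11 ± 0.12 (adjusted p = 0.433), and none of these 3 passed. Of 14 tested genes of nucleotide sugar and sialic acid synthesis, 3 rose, 5 fell and 6 did not pass, with a median of -0.11. Gne and Cmas, which make sialic acid and its CMP form, changed by -1.24 ± 0.16 (adjusted p = 0.00155) and -0.82 ± 0.14 (adjusted p = 0.00384). The amidotransferase genes Gfpt2 and Gfpt1, which open the hexosamine pathway, rose by 1.51 ± 0.32 (adjusted p = 0.00805) and 0.74 ± 0.19 (adjusted p = 0.0159). Gfpt2 was well above background on 1 control array and lost its call with normexp (0.42, adjusted p = 0.143), and the call of Gfpt1 ended without control replicate 2 (0.0508), CFD diet replicate 1 (0.0505) or CFD diet replicate 3 (0.0569).

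Genes that fell did so unequally across slides. In all 19 that fell, the difference was smallest on slide 2, where it had a median of -0.39, against -1.16 on slide 1 and -1.25 on slide 3. Of the 4346 genes of the whole array that fell and had a value on every array, 77.2% also changed least on slide 2. Of the 16 that rose, the smallest change was on slide 1 for 7, on slide 2 for 7 and on slide 3 for 2, and the medians were 1.24, 1.39 and 1.37. Among all 3764 such genes that rose, the shares were 40.6%, 45.6% and 13.8%. CFD diet replicate 2, on slide 2, also had the highest hepatocyte marker sum of its group, at 2100, and the part of this in the values of the transporters was not tested. The groups did not overlap for any of the 35 genes that passed, so the direction was the same on all 3 slides by that alone. Of all genes, 63% did not overlap. With the slide as a block, 28 of the 35 passed, 14 higher and 14 lower, and 46.0% of all genes did.

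**Figure D3:**
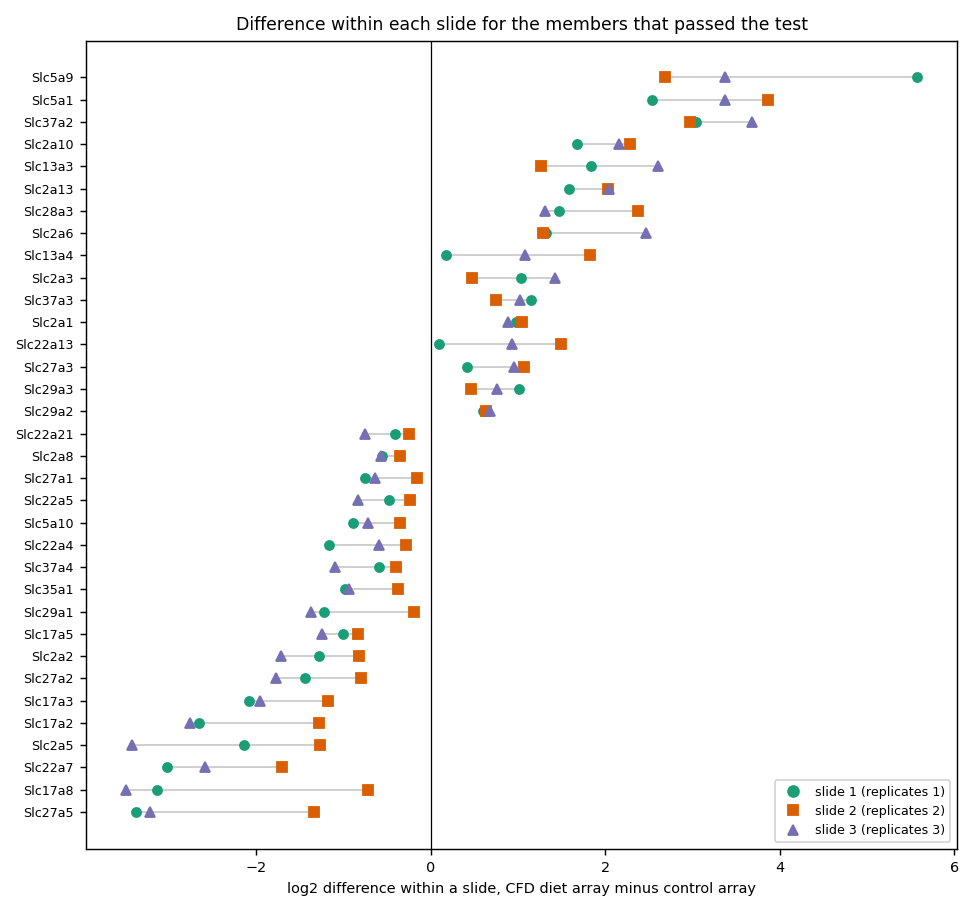
Log2 difference between the CFD diet array and the control array of the same slide (x axis, 1 marker a slide) for 34 of the 35 transporter genes that passed the test (y axis), in order of the fitted difference. In all 18 plotted genes that fell, the marker of slide 2 is the nearest to 0, and in the 16 that rose no slide takes that place throughout.

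For 16 transporter genes more than 1 probe was tested, and all tested probes of a gene gave the same call in 8 of them. In the other 8, some probes passed and some did not, and no gene had probes called in both directions. For Slc2a9 the probe used did not pass, while its 3 other probes passed with differences of -0.57 ± 0.16, -0.76 ± 0.18 and -1.46 ± 0.18. A dimmer probe of Slc27a4 rose by 0.60 ± 0.15 (adjusted p = 0.0147), where the probe used had -0.31 ± 0.18. The other probe of Slc35a3 had -0.76 ± 0.14 (adjusted p = 0.00531) and that of Slc35a2 had 0.48 ± 0.14 (adjusted p = 0.0290), so for both genes the outcome depended on the probe. Second probes of Slc22a18 (-0.55 ± 0.16) and 1 of the 3 other probes of Slc35a5 (-0.57 ± 0.15) passed where the probe used did not, and a second probe of Slc22a5 (-0.41 ± 0.16) did not pass. In this fit over all tested probes, Slc2a8 was at the threshold, with adjusted p = 0.0508 for the probe used and -0.62 ± 0.12 (adjusted p = 0.00602) for the other.

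**Figure D4:**
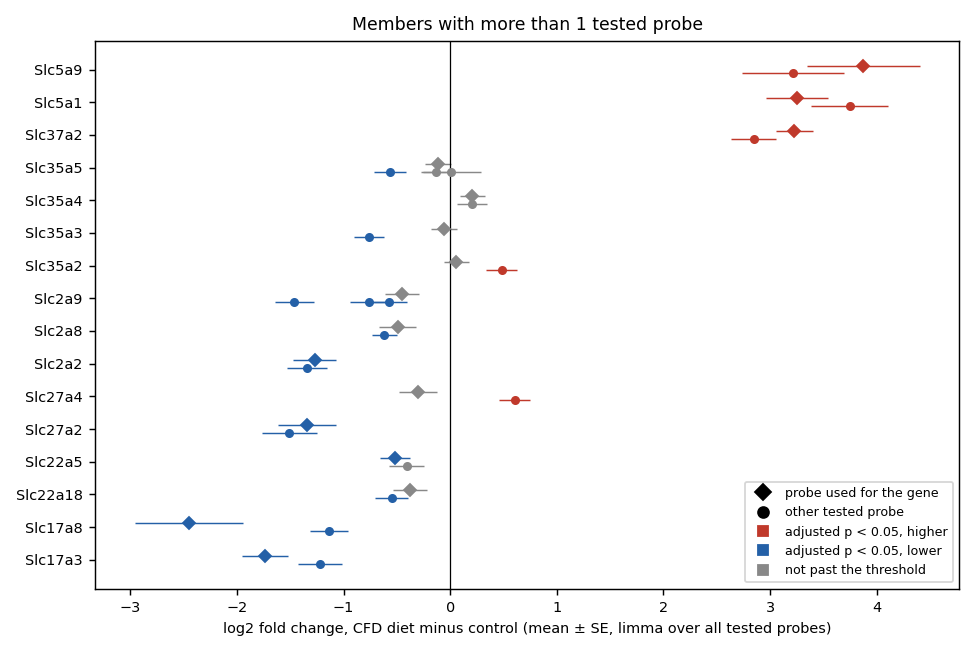
Log2 difference between diets (x axis, mean ± standard error, limma over all tested probes, 3 arrays a group) for each tested probe of the 16 transporter genes with more than 1 (y axis). Diamonds are the probe used for the gene and circles its other probes; red rose, blue fell and grey did not pass, and no gene has both a red and a blue probe.

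Of the 74 genes, 21 could not be tested, and 9 of these were not well above background on any array. The 21 untested genes were 8 of the Slc5 family, 5 of Slc22, 3 of Slc13, 2 of Slc17 and 1 each of Slc2, Slc27 and Slc29. Among them were Slc5a2, the glucose carrier of the kidney tubule, Slc22a2, an organic cation carrier of kidney, and the neuronal carriers Slc17a6, Slc17a7 and Slc5a7. The others were Slc2a12, Slc5a3, Slc5a4a, Slc5a4b, Slc5a5, Slc5a8, Slc5a12, Slc13a1, Slc13a2, Slc13a5, Slc22a3, Slc22a14, Slc22a19, Slc22a20, Slc27a6 and Slc29a4. Slc22a3, a cation carrier next to Slc22a2 on chromosome 17, was well above background on 2 CFD diet arrays, at -5.08 and -4.98, and on no control array.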

How the data were processed

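Per the labels, total liver RNA was labelled with Cy3. The deposited scanner files hold an intensity per spot, background-subtracted by Feature Extraction (version 10.5.1.1 per the file headers, 10.7 per the submitters' processing notes). The deposited value table holds linear intensity values. Each of its columns ranks as another replicate of its own group in the scanner files, so replicates are numbered by the scanner files and the table is an alternative only. Control and outlier spots were left out, spots of a probe averaged, and each array's 75th percentile subtracted on the log2 scale. Of 41174 probes, 23484 were tested, and a gene took its tested probe with the highest mean. CFD diet and control were set against each other by lmFit and eBayes of limma 3.58.1 (R 4.3.3), with Benjamini-Hochberg adjustment over 15911 genes. The procedure was tested on simulated data. Probes were named through RefSeq GRCm38.p6 (22944 by accession, 6664 by symbol, 3108 by older symbol, 8458 by the file's name). Probe coordinates are those of the files (mm7), whose annotation was not used here. The number of arrays limits the precision.

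The transporters and gene lists were chosen with earlier results of these data known. Values on every array are given for, in each family, the called members with the 2 largest rises and 2 largest falls and the member with the highest mean control signal, plus others for a range. Of each gene list, up to 2 rises and 2 falls are named. Some genes that this rule or a list would name are not reported here, but stay in the counts. Alternatives were other scalings, background corrections, filters, probes, a slide block and leaving out each array. Same-slide replicates deviated with correlations of 0.17, -0.069 and -0.010, and replicates on different slides with correlations from -0.20 to 0.17. The block is given beside a call only where it ended it, and slides as pairs come from the file headers.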

Additional observations from a re-analysis of the deposited data

How the results depend on the processing

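Of the 35 transporters that passed, 17 (7 higher, 10 lower) kept their call in each of the 16 alternatives that could fit them. The 16 that rose became 8 with normexp background correction. The 19 that fell became 10 without the filter on dim probes. Calls ended across the array too. Of all genes fitted, 39.7% passed with normexp and 19.9% without the filter, against 51.1% in the main fit. The 12 calls that ended without the filter included Slc13a4, Slc22a13, Slc22a21, Slc22a4, Slc22a5, Slc27a1, Slc29a1, Slc29a2, Slc2a8, Slc37a4 and Slc5a10. The fits named beside single genes leave this alternative out. Slc22a13 and Slc29a2 also lost their calls after scaling to the array median. Slc22a13 also did so under eBayes with trend and robust settings, and Slc2a8 with the deposited value table and with outlier spots kept. Leaving out 1 array gave 13 to 16 that rose (13 without CFD diet replicate 3) and 11 to 23 that fell, with 11 without control replicate 3, 12 without CFD diet replicate 3 and 23 without CFD diet replicate 2. Of all genes, 37.3% passed without control replicate 3, 37.7% without CFD diet replicate 3 and 55.8% without CFD diet replicate 2. After quantile normalization, 1 of the 19 that fell turned its sign and lost its call. Scaling to the array median moved the median difference of all genes from -0.11 to -0.31, with 13 transporters higher and 23 lower relative to it. With the slide as replicate block, 14 rose and 14 fell, and the 7 calls that ended included Slc13a4, Slc22a13, Slc22a21, Slc22a4, Slc22a5 and Slc27a1. Requiring 3 control and 3 CFD diet arrays well above background left 44 transporters and left out 9, of which Slc2a10, Slc2a13, Slc5a1, Slc5a9, Slc22a13 and Slc28a3 had passed and Slc2a4, Slc5a11 and Slc22a6 had not. For genes near background, the size of a rise depends on the background correction.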

Other observations

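Further members of these families are listed on the array under other names and were named through RefSeq, so they lie outside the selection by name. They were 8 genes on 12 probes, and they are given after their values were seen. Slc22a30 and Slc22a15, organic ion carriers, fell, with differences of -2.93 ± 0.56 (adjusted p = 0.00593) and -2.35 ± 0.44 (adjusted p = 0.00558). Slc22a30 had levels of 5.06, 5.01 and 5.07 in the control livers and 1.33, 3.55 and 1.46 in the CFD diet livers. Slc22a23 changed by -0.87 ± 0.16 (adjusted p = 0.00517). Slc22a26 and Slc22a29 rose by 3.35 ± 0.55 (adjusted p = 0.00351) and 2.25 ± 0.57 (adjusted p = 0.0163), each with 2 control arrays well above background. Slc22a26 had levels of -4.01, -6.15 and -4.22 in the control livers and -1.13, -1.39 and -1.80 in the CFD diet livers. Slc17a9, the vesicular nucleotide carrier that loads ATP, rose by 1.49 ± 0.18 (adjusted p = 0.00103), with levels of -0.34, -0.74 and -0.18 in the control livers and 1.19, 0.93 and 1.09 in the CFD diet livers. Slc17a4, a phosphate and urate carrier, did not pass (adjusted p = 0.998), with control values from 1.46 to 1.90 that enclosed those of the CFD diet livers. On none of the 6 arrays was Slc22a22 well above background.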
